A study of Mus musculus with 4 samples.

Results

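The Fc receptor genes are the genes whose protein products bind the constant part of antibodies, with the signalling chain and the relatives that belong to the same families. The members were named by gene symbol: Fcgr1, Fcgr2b, Fcgr3, Fcgr4, Fcer1g, Fcer1a, Fcgrt and Fcrls. All 8 were found, and each had UMIs (unique molecular identifiers, which count captured mRNA molecules) in all 4 libraries before cells were filtered, among 19491 genes listed in any library. Among the cells kept, Fcer1a had 0 UMIs at brain D3 and 9 at brain S3. The libraries were made from CD45+ (leukocyte) cells sorted from the dura mater or the brain of 8-week-old C57BL/6J mice on day 3 after photothrombotic injury (D3), in which Rose Bengal is activated by light through the skull, or on day 3 of the control condition, taken here as the sham operation (S3). There was 1 library for each of brain S3, brain D3, dura mater S3 and dura mater D3, and the number of mice behind a library was not given. The labels give no genetic change in any group. Before staining, the cells were blocked with an antibody against CD16 and CD32, which binds the proteins of Fcgr3 and Fcgr2b themselves, so the values below are mRNA levels in cells that carried this antibody.

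Fc gamma receptors bind IgG on immune complexes and opsonised targets. Fcgr1, Fcgr3 and Fcgr4 encode activating receptors that signal through the Fc receptor gamma chain encoded by Fcer1g, and Fcgr2b encodes the inhibitory receptor of mouse leukocytes, so the balance between them sets the threshold at which an immune complex activates a phagocyte. Fcer1a encodes the IgE-binding chain of the mast cell and basophil receptor, Fcgrt encodes the neonatal Fc receptor that recycles IgG inside the cell, and Fcrls encodes an Fc receptor-like molecule known as a marker of mouse microglia.

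On GRCm38, Fcgr2b (ENSMUSG00000026656, chr1:170958617-170976547, minus strand), Fcgr4 (ENSMUSG00000059089, chr1:171018920-171029761, plus strand), Fcgr3 (ENSMUSG00000059498, chr1:171051174-171064935, minus strand) and Fcer1g (ENSMUSG00000058715, chr1:171229572-171234365, minus strand) lie within 275749 bases of chromosome 1. Fcer1a (ENSMUSG00000005339) lies at chr1:173221284-173227214, on the minus strand. Fcgr1 (ENSMUSG00000015947, chr3:96282909-96293969) and Fcrls (ENSMUSG00000015852, chr3:87250758-87263738) lie on chromosome 3 and Fcgrt (ENSMUSG00000003420, chr7:45092990-45103851) on chromosome 7, all on the minus strand. Fcgr2b and Fcgr3 have similar coding sequences, but 0% of the 90-base windows in the last 500 bases of the members' annotated transcripts, where 3′ libraries are counted, were found in a transcript of another gene.

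The promoters of the 4 Fc gamma receptor genes are shown because Fcgr1 and Fcgr4 were called between S3 and D3 in more classes than Fcgr3 and Fcgr2b, as described further on. Each runs from 250 bases before to 50 bases after the RefSeq transcription start (GRCm38.p6), 5′ to 3′ in the direction of the gene (for Fcgr3 the upstream one of 2 RefSeq starts), and capitals mark GAGGAA or its reverse complement, the core of sites of the myeloid factor PU.1, and TTCNNNGAA, the palindrome of STAT sites.

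Fcgr1, chr3:96293920-96294219, minus strand: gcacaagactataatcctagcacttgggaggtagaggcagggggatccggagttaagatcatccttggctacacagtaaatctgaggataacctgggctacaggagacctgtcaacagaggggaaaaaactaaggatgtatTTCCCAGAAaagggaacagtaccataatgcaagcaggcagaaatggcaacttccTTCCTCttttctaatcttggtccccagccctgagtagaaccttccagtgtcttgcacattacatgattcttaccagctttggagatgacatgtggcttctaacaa

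Fcgr4, chr1:171018676-171018975, plus strand: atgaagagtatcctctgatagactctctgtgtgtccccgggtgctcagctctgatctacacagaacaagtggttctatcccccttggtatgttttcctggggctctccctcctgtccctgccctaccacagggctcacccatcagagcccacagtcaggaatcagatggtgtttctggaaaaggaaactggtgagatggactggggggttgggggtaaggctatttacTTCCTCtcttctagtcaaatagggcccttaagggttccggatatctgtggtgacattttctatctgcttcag

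Fcgr3, chr1:171059354-171059653, minus strand: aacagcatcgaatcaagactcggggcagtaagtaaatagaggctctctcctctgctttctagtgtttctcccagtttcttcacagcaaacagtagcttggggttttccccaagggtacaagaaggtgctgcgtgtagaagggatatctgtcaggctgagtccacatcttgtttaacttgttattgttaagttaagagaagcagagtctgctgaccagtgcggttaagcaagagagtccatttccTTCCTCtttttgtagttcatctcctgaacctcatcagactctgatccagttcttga

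Fcgr2b, chr1:170976022-170976321, minus strand: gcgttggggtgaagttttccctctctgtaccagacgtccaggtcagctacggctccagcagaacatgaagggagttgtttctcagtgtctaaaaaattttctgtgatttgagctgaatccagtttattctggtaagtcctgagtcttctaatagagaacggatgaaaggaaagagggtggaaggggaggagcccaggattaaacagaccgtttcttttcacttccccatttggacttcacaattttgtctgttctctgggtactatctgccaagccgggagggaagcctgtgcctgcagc

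GAGGAA was present on either strand in the promoters of 5 of the 8 members, at positions -55 in Fcgr1, -22 in Fcgr4 and -6 in Fcgr3 (counted from the start site), and also in Fcer1a and Fcrls. Among 32851 promoters of the same length 28.3% held it. TTCNNNGAA was present in 1 of the 8, Fcgr1, at -109, and in 8.30% of all promoters. The motifs did not overlap each other, and a match of letters is a description of the sequence and not evidence of binding.

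Each class was treated as a pool of its cells in a library. Cells were clustered without the members and named "X-like" by fixed marker genes, and the Lyve1+ and Lyve1- macrophages were named in the same way. Of 14098 cells kept, 625 in 4 clusters stayed unnamed. A level is given as UMIs of the gene per 1000000 UMIs of the class and library (CPM), with an exact Poisson 95% interval. Because each condition had 1 library, no test was possible, and the intervals cover counting error only, not differences between animals or preparations. A member was called higher or lower in a comparison when the levels differed 2-fold or more, the exact 95% interval of the log2 ratio left out 0 and the groups together held at least 10 UMIs. Members are counted below where the groups together held at least 100 UMIs, and each count is given beside the percentage of all genes with at least 100 UMIs that the same rule called. Levels of different genes are not compared in size, since the 3′ counts were not scaled by length.

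The libraries held 3515 to 5925 barcodes and 2603 to 4438 kept cells, with a median of 8252 to 14269.5 UMIs per kept cell, higher at D3 than at S3 in both tissues. Pairs of libraries shared 3 to 11 barcodes. T-like and B-like cells, which lack most of these receptors, served as a reference for free RNA, and T-like cells had a median of 5961 to 7810 UMIs. T-like cells of the brain were higher at D3: they held Fcgr3 at 11.6 CPM at S3 and 64.5 CPM at D3, and Fcrls at 11.8 and 48.6 CPM. B-like cells of the brain held Fcgr3 at 6.78 CPM at S3 and 5.43 CPM at D3 (19 and 2 UMIs), and Fcrls at 7.85 and 24.4 CPM. The T-like class of the brain also differed in make-up: a cluster among them held 332 of its 586 cells at S3 and 37 of its 131 at D3. The part of this in the T-like levels was not tested.

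**Figure D1:**
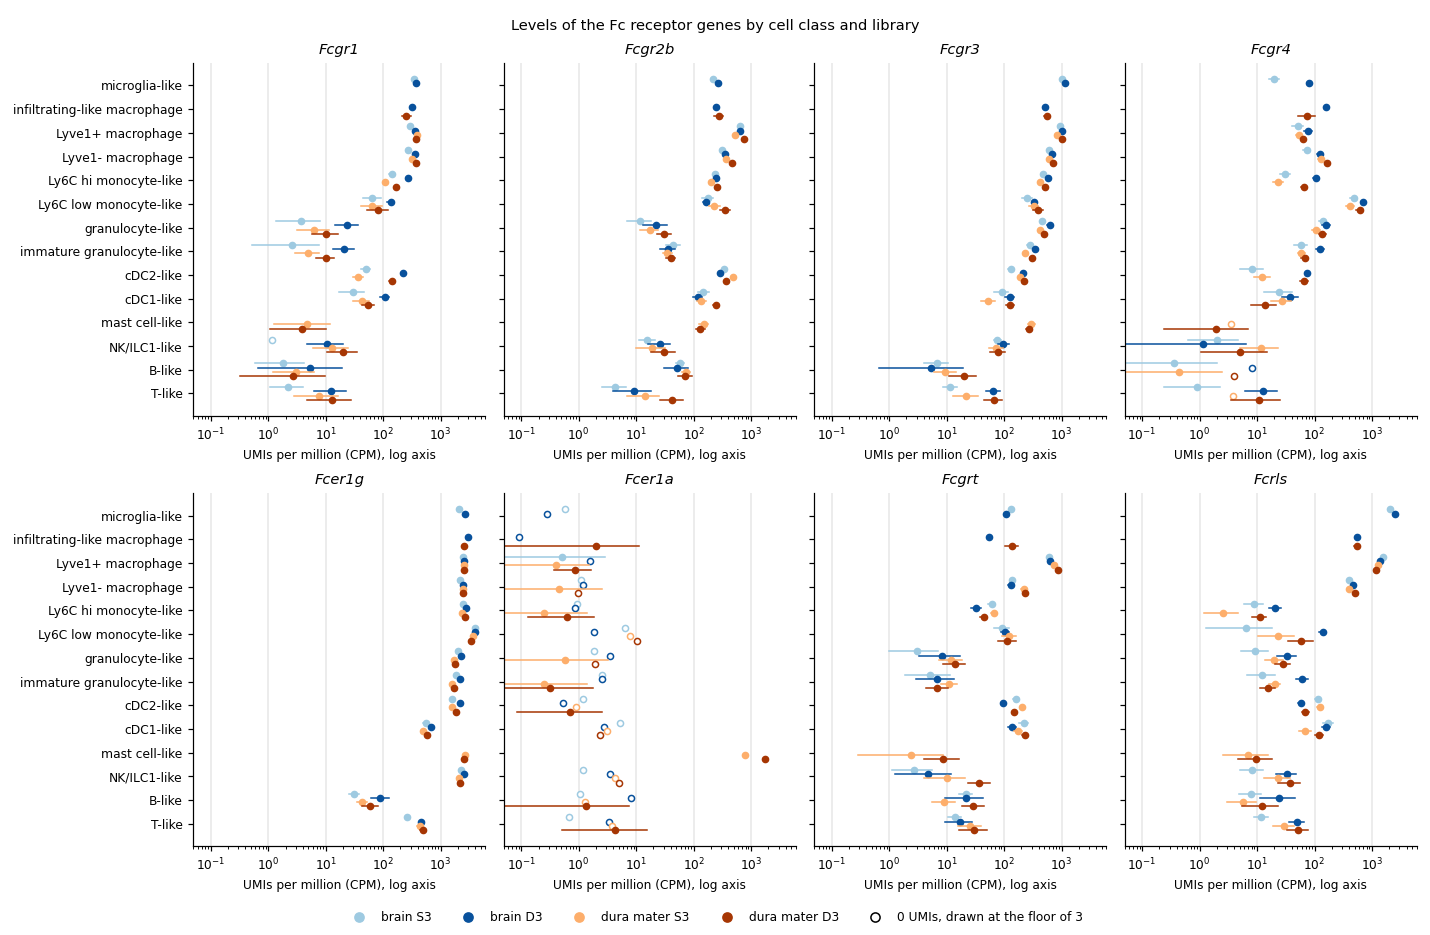
Level of each member in CPM (log axis) in the named classes, with exact Poisson 95% intervals; light and dark blue are brain S3 and D3, orange and brown are dura mater S3 and D3, and open circles are classes with 0 UMIs drawn at the level of 3 UMIs. Fcer1a stands at 769 and 1728 CPM in mast cell-like cells, Fcrls is highest in microglia-like cells, and Fcer1g lies between 1550 and 4031 CPM in every class shown except cDC1-like, B-like and T-like cells.

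Fcgr1 encodes the high-affinity activating IgG receptor. At S3 it stood at 350 CPM (334 to 367) in microglia-like cells of the brain, and in Lyve1+ macrophages it stood at 290 CPM (267 to 315) in the brain and 388 CPM (370 to 406) in the dura mater. In Ly6C hi monocyte-like cells it was 140 CPM in the brain and 108 CPM in the dura mater, and in granulocyte-like cells 3.69 and 6.28 CPM, close to the T-like cells (2.23 and 7.66 CPM). The level of microglia-like cells thus lay between those of the Lyve1+ macrophages of the 2 tissues, Lyve1- macrophages held 272 CPM in the brain and 314 CPM in the dura mater, monocyte-like cells were lower, and granulocyte-like cells did not stand above free RNA at S3.

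The cDC2-like class is named for conventional dendritic cells of the second type, which present antigen to CD4+ T cells. Its markers of these and of other cells also differed between S3 and D3, as given further on. The class was low in Fcgr1 at S3 and several-fold higher at D3. In the brain the level was 49.7 CPM (41.4 to 59.1) at S3 and 217 CPM (205 to 230) at D3. Dura mater cDC2-like cells held 36.7 CPM (30.5 to 43.9) and 140 CPM (127 to 155). Fcgr1 rose by 2.13 on the log2 scale (1.86 to 2.40) in the brain and by 1.93 (1.63 to 2.24) in the dura mater. The share of cDC2-like cells with an Fcgr1 UMI was 30.7% at S3 and 71.5% at D3 in the brain and 28.1% and 55.1% in the dura mater, against 0.853% and 6.11% of T-like cells in the brain and 4.40% and 8.33% in the dura mater. With every cell thinned to 2000 UMIs the shares were 5.71% and 25.8% in the brain and 6.18% and 15.2% in the dura mater, so the same order held at equal depth, where most cells with the gene had 1 UMI.

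Fcgr4, which encodes an activating receptor of intermediate affinity, moved in the same cells. In cDC2-like cells of the brain it stood at 8.22 CPM (5.09 to 12.6) at S3 and 74.7 CPM (67.7 to 82.2) at D3, and rose by 3.18 on the log2 scale (2.55 to 3.89). Dura mater cDC2-like cells held 12.1 CPM (8.67 to 16.5) and 65.4 CPM (56.3 to 75.6), a rise of 2.43 (1.93 to 2.96). In both tissues 2 of 7 measured members were called in cDC2-like cells, Fcgr1 and Fcgr4, against 5.75% of 6256 genes in the brain and 1.87% of 5683 genes in the dura mater.

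The cDC2-like class also differed in its markers of other cells. In the brain, the summed level of the Ly6C hi monocyte list (8 genes) was 1150 CPM at S3 and 2256 CPM at D3, that of the Lyve1- macrophage list (10 genes) 2431 and 6419 CPM, and that of the cDC2 list (9 genes) 4067 and 2468 CPM. The same lists of the dura mater stood at 1294 and 1453 CPM, 2999 and 4852 CPM, and 4792 and 3911 CPM. All genes of these lists were detected in each library except 1 Ly6C hi monocyte gene at brain S3 (7 of 8 detected). The basophil list (6 genes, 3 detected in each) stood at 96.7 and 1680 CPM in the brain. Without the cells that held a UMI of Ly6c2, Vcan or Fn1, the log2 ratio of Fcgr4 was 3.92 in the brain (188 cells at D3, 95 at S3) and 3.13 in the dura mater (95 and 112 cells), and Fcgr1 was also still called in both tissues, at 2.18 in the dura mater. With a per-cell marker gate in place of clusters, Fcgr1 in the dura mater was at 0.87 and no longer called. The part of the other markers in these values was not tested.

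In microglia-like cells, the resident phagocytes of the brain parenchyma, Fcgr4 stood at 19.4 CPM (15.8 to 23.6) at S3 and 81.1 CPM (75.8 to 86.7) at D3. Fcgr4 rose by 2.06 on the log2 scale (1.76 to 2.38). T-like cells held it at 0.892 and 12.4 CPM. The share of microglia-like cells with an Fcgr4 UMI was 15.5% at S3 and 44.4% at D3, and 3.71% and 9.06% in cells thinned to 2000 UMIs, so the gene was captured in a minority of the cells at either time. The other members of this class were nearer to their S3 levels: the log2 ratio was 0.07 (-0.01 to 0.15) for Fcgr1, 0.17 (0.12 to 0.22) for Fcgr3 and 0.26 (0.16 to 0.36) for Fcgr2b. Thus 1 of 7 measured members was called, against 6.62% of 8811 genes, and the members' median log2 ratio was 0.26 beside -0.16 over all genes tested. The class also held more UMIs of the infiltrating macrophage markers at D3 (5097 against 1040 CPM over 10 genes, all detected) and fewer of the microglia markers (11960 against 19000 CPM over 10 genes, all detected). Without the cells that held a UMI of Arg1, Gpnmb or Fn1, which left 412 cells at S3 and 368 at D3, the log2 ratio of Fcgr4 was 1.62 (1.26 to 1.99).

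**Figure D2:**
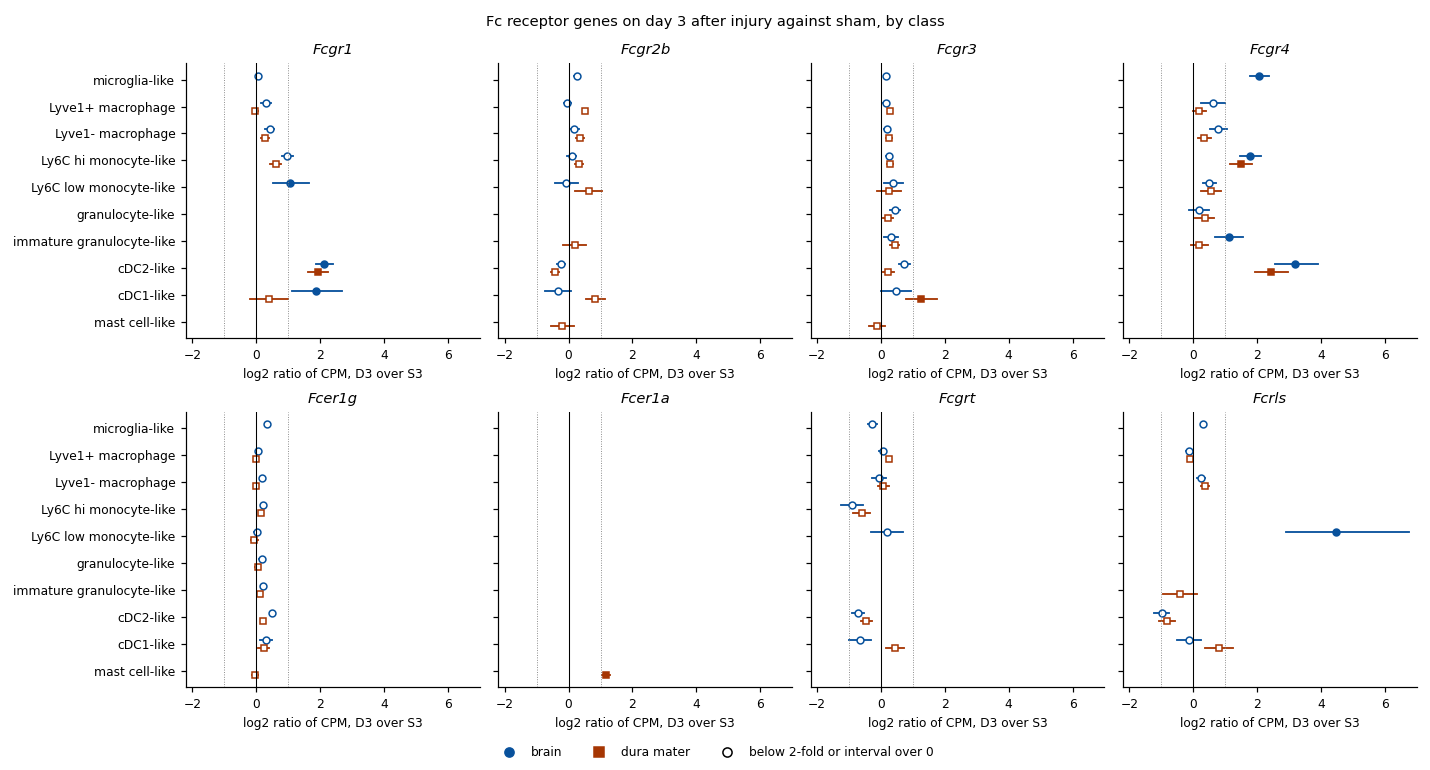
Log2 ratio of the CPM at D3 over S3 for each member and class in the brain (blue circles) and the dura mater (brown squares), with exact 95% intervals for counting error; filled symbols are called (2-fold or more, dotted lines) and open symbols are not. The filled symbols are mainly Fcgr4 and Fcgr1, which lie to the right of 0 in cDC2-like cells of both tissues, while Fcgr3 and Fcer1g lie close to 0 in most classes.

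In Ly6C hi monocyte-like cells, the classical blood monocytes, Fcgr4 stood at 30.3 CPM (24.6 to 37.0) at S3 and 104 CPM (93.5 to 115) at D3 in the brain, and rose by 1.78 (1.45 to 2.12). Those of the dura mater held 23.1 CPM (18.6 to 28.3) and 64.9 CPM (57.9 to 72.5), a rise of 1.49 (1.15 to 1.84). It was the only called member of the 6 measured in either tissue, against 4.2% of 5861 genes in the brain and 2.03% of 6745 genes in the dura mater. Fcgr1 in these cells stood at 140 and 275 CPM in the brain, with a log2 ratio of 0.97 (0.81 to 1.14) that lay just under 2-fold, and at 108 and 165 CPM in the dura mater (0.61, 0.44 to 0.78). In the brain that ratio of Fcgr1 was 2-fold or more under 5 of the alternative settings, between 1.26 and 1.84. Markers of granulocytes moved with these cells: the summed level of that list (10 genes, all detected) was 2785 CPM at S3 and 6588 CPM at D3 in the brain and 809 and 5703 CPM in the dura mater, and its part in the values was not tested.

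Ly6C low monocyte-like cells, the patrolling monocytes of the vessel wall, were the highest class for Fcgr4 in every library. The level was 479 CPM (419 to 546) at brain S3, 682 CPM (642 to 723) at brain D3, 416 CPM (355 to 485) at dura mater S3 and 608 CPM (522 to 704) at dura mater D3. At S3 the next named class, granulocyte-like cells of the brain at 139 CPM (122 to 158), lay well below, and the D3 to S3 ratios of Fcgr4 in Ly6C low monocyte-like cells (0.51 in the brain, 0.55 in the dura mater) were below 2-fold. In the brain, 2 of 7 measured members were called, against 2.84% of 3061 genes: Fcgr1, at 64.9 CPM at S3 and 135 CPM at D3 (1.06, 0.51 to 1.65), and Fcrls, at 6.28 and 138 CPM (4.46, 2.89 to 6.75). These calls rested on 63 cells and on 31 and 3 UMIs at S3. Fcgr1 was at -0.14 with suspected doublets kept. It was also not called with the per-cell gate (0.89), after thinning (1.05, -0.32 to 2.765), with the mean of per-cell shares (0.86) or with T-like levels subtracted (0.97). Fcrls was at 0.31 with the per-cell gate, and T-like cells of the brain held it at 11.8 CPM at S3 and 48.6 CPM at D3. The Lyve1- macrophage list of this class stood at 6375 CPM at S3 and 13540 CPM at D3, with 10 of 10 genes detected, and its part was not tested. In the dura mater 0 of 4 members were called, against 1.47% of 1087 genes.

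Granulocytes carry Fcgr3 and Fcgr4 as their main IgG receptors. In granulocyte-like cells Fcgr3 stood at 457 CPM (425 to 491) at brain S3, 618 CPM (567 to 673) at brain D3, 427 CPM (397 to 459) at dura mater S3 and 497 CPM (463 to 533) at dura mater D3. Fcgr4 stood at 139, 158, 106 and 136 CPM in the same order. The log2 ratios of Fcgr3 (0.43 in the brain, 0.22 in the dura mater) were below 2-fold, and 0 of 3 measured members were called in either tissue, against 5.2% of 2501 genes in the brain and 6.41% of 3043 genes in the dura mater. In immature granulocyte-like cells of the brain Fcgr4 stood at 57.6 CPM (44.7 to 73.2) at S3 and 125 CPM (105 to 146) at D3, and was the only one of 3 measured members called (1.11, 0.69 to 1.55), against 3.77% of 2174 genes. That call was lost under 6 of the alternatives, with a lowest value of 0.23 after thinning. In the dura mater 0 of 5 members were called in immature granulocyte-like cells, against 1.68% of 4416 genes.

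In cDC1-like cells, the dendritic cells that cross-present antigen, 1 of 6 measured members was called in each tissue, from few cells (23 and 50 in the brain, 39 and 45 in the dura mater). In the brain it was Fcgr1, at 29.5 CPM (17.2 to 47.3) at S3 and 107 CPM (88.2 to 128) at D3, against 3.98% of 2084 genes. Fcgr3 was the member called in the dura mater, at 52.5 CPM (39.1 to 69.0) and 125 CPM (106 to 147), against 1.28% of 2821 genes. T-like cells of the dura mater, the reference for free RNA, also held more Fcgr3 at D3 than at S3, as given further on. That reference was not subtracted from the cDC1-like levels, and the alternative settings were not run for this class. Whether the Fcgr3 call would hold under them was not tested.

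Infiltrating-like macrophages, named by a list with Arg1, Gpnmb and Spp1, were found almost wholly in the injured brain (1451 cells at brain D3 and 24 at dura mater D3), with 7 cells at brain S3, too few for a level, so they were set beside other classes. At brain D3 they held Fcgr1 at 320 CPM (314 to 327), Fcgr3 at 508 CPM (500 to 516), Fcgr4 at 157 CPM (153 to 162) and Fcgr2b at 247 CPM (242 to 252). With 32.7% of the cells and 33024016 of the 72390201 UMIs of that library, they held 54.3% of the Fcgr1 UMIs, 53.9% of the Fcgr4 UMIs, 51.9% of the Fcer1g UMIs and 41.7% of the Fcgr3 UMIs, in cells with a median of 21369 UMIs each. Lyve1+ macrophages of the dura mater held 51.6% of the Fcgr1 UMIs of their library at S3 and 51.7% at D3, with 11.1% and 21.9% of the cells.

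Against the Lyve1+ and Lyve1- macrophages of brain S3, pooled, the infiltrating-like macrophages of brain D3 had Fcgr4 higher (157 against 63.6 CPM, log2 ratio 1.31, 1.14 to 1.48) and Fcgrt lower (55.0 against 337 CPM, -2.62, -2.72 to -2.52). Thus 2 of 7 members were called, against 20.8% of 9696 genes, a share near that of all genes. Fcgr2b was at -0.88 and Fcgr3 at -0.54, both below 2-fold. The granulocyte markers of the S3 macrophages (15920 CPM against 1260 CPM in the infiltrating-like cells, 10 of 10 genes detected in each) moved with this comparison, and their part was not tested.

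Against the Ly6C hi monocyte-like cells of the same library, 1 of 7 members was called, against 20% of 9442 genes. It was Fcrls, at 547 CPM (539 to 555) in infiltrating-like macrophages and 20.3 CPM (15.8 to 25.6) in the monocyte-like cells (4.75, 4.42 to 5.11), where it lay below the level of T-like cells (48.6 CPM). Against the microglia-like cells of the same library, 2 of 7 were called, against 18.8% of 10055 genes. Fcgr3 was lower in the infiltrating-like cells (508 against 1143 CPM, -1.17, -1.20 to -1.14), and so was Fcrls (547 against 2514 CPM, -2.23 to -2.17 on the log2 scale). Fcgr4 was at 0.96 (0.85 to 1.06), just under 2-fold higher. Without the filter on cells Fcgr3 was at -0.84 in the comparison with microglia-like cells and was not called.

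Fcgr3 encodes the low-affinity activating receptor of most myeloid cells. It stood at 1017 CPM (989 to 1045) at S3 and 1143 CPM (1123 to 1163) at D3 in microglia-like cells. In Lyve1+ macrophages it stood at 935 and 1034 CPM in the brain and at 840 and 1017 CPM in the dura mater. The intervals of the classes that follow did not reach these levels: Lyve1- macrophages ranged from 598 to 721 CPM, Ly6C hi monocyte-like cells from 415 to 573 CPM and cDC2-like cells from 130 to 222 CPM. The D3 to S3 ratio of Fcgr3 was read in the classes with 100 UMIs or more. Its interval lay above 0 in 8 of 10 classes of the brain and 7 of 9 of the dura mater. The medians were 0.33 and 0.26, and none of these intervals lay below 0. T-like cells, the reference for free RNA, held Fcgr3 at 11.6 and 64.5 CPM in the brain and 21.7 and 65.8 CPM in the dura mater. The ratios were not corrected for this reference.

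The pooled Lyve1+ and Lyve1- macrophages of the dura mater had 0 of 7 members called between D3 and S3, against 1.05% of 9273 genes. Fcgr2b stood at 477 CPM (461 to 493) at S3 and 677 CPM (662 to 691) at D3 in these macrophages, a log2 ratio of 0.50 (0.45 to 0.56). Fcgr1 was at 365 and 378 CPM, a ratio of 0.05 (-0.02 to 0.12). In the same macrophages of the brain 0 of 7 were called, against 1.21% of 7283 genes, and Fcgr4, at 63.6 CPM at S3 and 105 CPM at D3, had the largest ratio of the 7 (0.72, 0.51 to 0.94). That ratio was 1.32 with the per-cell gate. Between the dura mater and the brain at S3, 0 of 7 were called, against 4.32% of 8235 genes, with Fcgrt at 0.77 (0.69 to 0.86) and Fcgr1 at 0.39 (0.29 to 0.48).

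The signalling chain Fcer1g, which Fcgr1, Fcgr3, Fcgr4 and the IgE receptor share, was captured in nearly all myeloid cells. It stood at 3993, 4031, 3587 and 3438 CPM in Ly6C low monocyte-like cells at brain S3, brain D3, dura mater S3 and dura mater D3, at 2129 and 2692 CPM in microglia-like cells, at 2636 and 2569 CPM in mast cell-like cells at S3 and D3, and at 2267, 2578, 2060 and 2130 CPM in NK/ILC1-like cells. B-like cells, the reference for this gene, held 31.4 CPM at brain S3 and 89.6 CPM at brain D3, a called difference on 88 and 33 UMIs. No class of myeloid, mast or NK/ILC1-like cells had a 2-fold difference between S3 and D3. In the brain the interval of the ratio lay above 0 in 10 of 11 classes, B-like cells included, with a median of 0.21, and in the dura mater in 4 of 11, with a median of 0.05.

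Fcgr2b, the inhibitory receptor, was highest in Lyve1+ macrophages (651 CPM at brain S3, 635 at brain D3, 525 at dura mater S3 and 744 at dura mater D3). It stood at 336 CPM (314 to 359) at S3 and 283 CPM (269 to 297) at D3 in cDC2-like cells of the brain, and at 487 CPM (464 to 512) and 363 CPM (341 to 386) in those of the dura mater. The cDC2-like class was the only one whose interval lay below 0, in the brain (-0.25, -0.37 to -0.13) and in the dura mater (-0.42, -0.54 to -0.31), among 8 and 9 classes measured. In B-like cells, whose only Fc gamma receptor is known to be this one, it stood at 51.6 to 74.4 CPM.

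As a share of the UMIs of the 4 Fc gamma receptor genes, Fcgr2b made up 64.2% (61.6 to 66.8, exact binomial 95% interval) of those of cDC2-like cells at brain S3 and 35.8% (34.4 to 37.2) at brain D3. For the dura mater the share was 67.2% (65.3 to 69.1) at S3 and 45.9% (43.8 to 48.0) at D3. The share of Fcgr1 in the same cells was 9.49% and 27.4% in the brain and 5.07% and 17.7% in the dura mater. The macrophage, monocyte and cDC2 marker lists of this class moved as well (in the brain from 2431 to 6419, from 1150 to 2256 and from 4067 to 2468 CPM), and their part in the shares was not tested. In microglia-like cells the share of Fcgr2b was close at both times, at 13.7% (12.9 to 14.4) and 14.2% (13.7 to 14.7). Granulocyte-like cells held 1.91% to 4.58% and B-like cells of S3 85.2% to 86.8%. These are shares of counted 3′ ends, not of receptors on the cell.

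The log2 ratio of Fcgr2b minus that of Fcgr3 measures this balance between the 2 low-affinity receptors. It was -0.98 (-1.20 to -0.77) in cDC2-like cells of the brain and -0.66 (-0.86 to -0.46) in those of the dura mater. In microglia-like cells it was 0.09 (-0.02 to 0.20), and in the macrophages of the dura mater it was 0.20 (0.13 to 0.28). For infiltrating-like macrophages against the macrophages of brain S3 it was -0.34 (-0.43 to -0.25), but it was 1.08 (1.01 to 1.15) against microglia-like cells and 0.16 (0.04 to 0.28) against Ly6C hi monocyte-like cells of brain D3. The D3 to S3 ratio of Fcgr2b was thus lower than that of Fcgr3 in cDC2-like cells and slightly higher in dura mater macrophages. These are differences in change and not in level. For infiltrating-like macrophages the sign depended on the class they were set against.

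**Figure D3:**
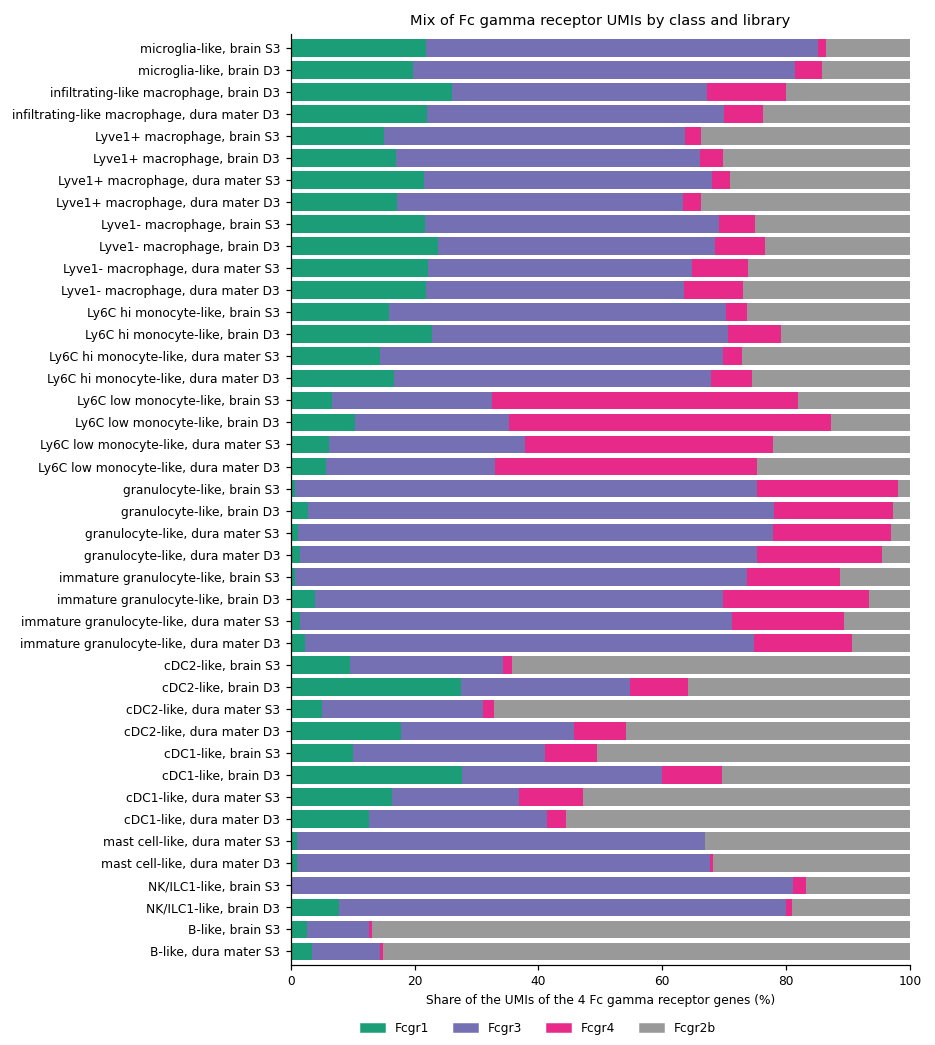
Shares (%) of Fcgr1, Fcgr3, Fcgr4 and Fcgr2b among the UMIs of these 4 genes, 1 bar for each class and library. The grey part, Fcgr2b, is 64.2% and 35.8% in cDC2-like cells of brain S3 and D3, and Fcgr4 is 52.0% in Ly6C low monocyte-like cells of brain D3.

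UMIs of several Fc gamma receptor genes were found in the same cell to a degree that differed by class. At 2000 UMIs per cell, 63.3% of microglia-like cells at S3 and 68.0% at D3 had UMIs of at least 2 of the 4 genes. The share was 54.9% in infiltrating-like macrophages of brain D3, 67.7% to 80.7% in Lyve1+ macrophages over the 4 libraries and 29.5% to 46.9% in Ly6C hi monocyte-like cells. It was 15.0% and 27.3% in cDC2-like cells of brain S3 and D3. Granulocyte-like cells stood at 15.3% to 18.5% over the 4 libraries and T-like cells at 0% to 3.33%.

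Fcer1a, the IgE-binding chain, was the most class-restricted member. Mast cell-like cells (108 at dura mater S3 and 94 at D3) held 86.6% of its UMIs in the dura mater at S3 and 98.6% at D3, with 3.14% and 3.61% of the cells, and the brain libraries held 1 mast cell-like cell between them. In T-like cells of brain S3 it had 0 UMIs in 586 cells, which by a limit of 3 counts allows up to 0.512% of cells with a UMI, and in those of the dura mater it had 0 UMIs in 91 cells at S3 and 2 in 60 cells at D3 (3.33% of cells, 4.24 CPM). The level in mast cell-like cells was 769 CPM (712 to 831) at S3 and 1728 CPM (1649 to 1811) at D3. Fcer1a rose by 1.17 on the log2 scale (1.04 to 1.30), and it was the only called member of the 4 measured there, against 1.26% of 2620 genes. The share of mast cell-like cells with a UMI was 75.0% at S3 and 89.4% at D3, with medians of 8097.5 and 10553.5 UMIs per cell. At 2000 UMIs per cell, 45.4% of the cells at S3 and 22.3% at D3 had no UMI of it left, and 11.1% and 26.6% had 5 or more. The partners of the receptor were near their S3 levels: Ms4a2, the beta chain, was at 588 and 621 CPM (0.08, -0.09 to 0.25, named after its values were seen), and Fcer1g was at -0.04 (-0.12 to 0.04). The mast cell markers stood at 153200 CPM at S3 and 173000 CPM at D3, with 8 of 8 detected in each, the basophil markers at 3105 and 2977 CPM (6 of 6), and the granulocyte markers at 1269 and 2823 CPM (10 of 10). The part of the last list in the difference was not tested.

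**Figure D4:**
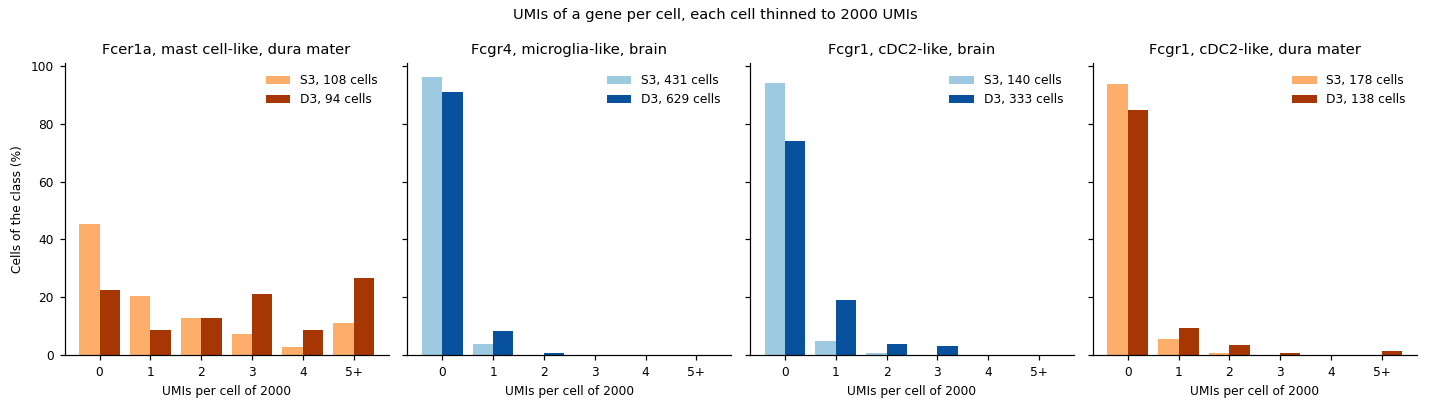
Share of cells (%) by number of UMIs of a gene after thinning each cell to 2000 UMIs, for Fcer1a in mast cell-like cells, Fcgr4 in microglia-like cells and Fcgr1 in cDC2-like cells of the brain and the dura mater; pale bars are S3 and dark bars D3. In all 4 panels the bar at 0 UMIs is lower at D3, from 45.4% to 22.3% for Fcer1a and from 96.3% to 90.9% for Fcgr4.

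Fcgrt, the neonatal Fc receptor, was highest in Lyve1+ macrophages. It stood there at 616 CPM (581 to 652) at brain S3, 637 CPM (602 to 674) at brain D3, 734 CPM (710 to 758) at dura mater S3 and 876 CPM (857 to 895) at dura mater D3, and Lyve1- macrophages ranged from 133 to 231 CPM. Endothelial-like cells of the brain, a cell type known for this receptor, held 429 and 416 CPM in 20 and 24 cells. In the dura mater Lyve1+ macrophages held 57.5% of the Fcgrt UMIs at S3 and 72.5% at D3. Its ratios were below 0 in Ly6C hi monocyte-like and cDC2-like cells of both tissues: -0.90 (-1.25 to -0.56) and -0.60 (-0.86 to -0.33) in brain and dura mater Ly6C hi monocyte-like cells, and -0.71 (-0.90 to -0.52) and -0.46 (-0.64 to -0.28) in cDC2-like cells. None of these 4 values reached 2-fold, but in Ly6C hi monocyte-like cells Fcgrt did with the T-like level subtracted (-1.598 in the brain, -1.502 in the dura mater) and, in the brain, after thinning (-1.03).

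Fcrls was highest in microglia-like cells, at 2055 CPM (2016 to 2094) at S3 and 2514 CPM (2484 to 2544) at D3, a log2 ratio of 0.29 (0.26 to 0.32). Lyve1+ macrophages followed at 1546, 1400, 1277 and 1189 CPM at brain S3, brain D3, dura mater S3 and dura mater D3. Infiltrating-like macrophages held 547 CPM, with 76.7% of the cells carrying a UMI against 17.6% of T-like cells, and Lyve1- macrophages 389 to 502 CPM. Microglia-like cells held 63.6% of the Fcrls UMIs of brain S3 and 51.2% of those of brain D3, where the infiltrating-like macrophages held 34.3%, so a library's Fcrls did not come from microglia-like cells alone. Ly6C hi monocyte-like cells stood below the T-like cells of their own library in all 4 libraries (2.51 to 20.3 CPM), which is read here as background. In cDC2-like cells the ratio was -0.99 (-1.22 to -0.75) in the brain and -0.83 (-1.09 to -0.58) in the dura mater, the former 2-fold or more under 6 of the alternatives.

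The other genes of the pathway were taken from a list of 26 partner chains, further Fc-binding genes and signalling genes, of which 25 were listed. In microglia-like cells 0 of the 17 with at least 100 UMIs were called, against 6.62% of all genes, with a median log2 ratio of -0.23 beside -0.16. Below 100 UMIs, Fcmr (-2.06, the IgM receptor) and Fcrla (-2.28) were lower, each with 15 UMIs or fewer. In infiltrating-like macrophages against the macrophages of brain S3, 0 of 18 were higher and 1 was lower, Trim21 (-1.18), a cytosolic antibody receptor, against 20.8% of all genes called. Fcer2a, Fcmr and Fcrla, genes of B cells, were lower there with fewer than 100 UMIs, and the B-cell marker list stood at 43.2 CPM against 245 CPM.

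Against the Ly6C hi monocyte-like cells of brain D3, 7 of 18 were called, against 20% of all genes. Of these, 2 were higher in infiltrating-like macrophages, the adaptor Blnk (3.76) and Fcrl1 (2.30), and 5 were lower: the Src-family kinases Fgr (-1.86), Fyn (-1.33) and Lyn (-1.26), the phosphoinositide kinase subunit Pik3cd (-1.34) and the phospholipase Plcg2 (-1.01). The list's median was -0.39 beside 0.03 over all genes. Against microglia-like cells 1 of 18 was higher, Fgr (1.38), and 1 lower, Blnk (-1.06), and below 100 UMIs Cd247, a T-cell and NK-cell chain, was lower (-2.33), against 18.8% of all genes called, with a median of -0.29 beside -0.14. In cDC2-like cells 0 of 16 were called in either tissue, against 5.75% and 1.87% of all genes, with 9 intervals above 0 in the brain and 8 in the dura mater, and medians of 0.32 and 0.26 beside 0.03 and 0.05. In mast cell-like cells 0 of 10 were called, against 1.26%.

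Over 73 combinations of class and library with at least 20 cells, the genes most like each member in log2(CPM + 1) were found among 13219 genes, as a description, since the combinations share libraries. Fcgr1 was most like Ms4a6d (Pearson r 0.93), and Csf1r (0.92) was also among its 3 most like genes. Fcgr3 was most like Lst1 (0.87), Sirpa and Fcer1g (0.85), and Fcgr4 most like Cd300ld (0.89), Slc11a1 and C130050O18Rik. Fcer1g was most like Tyrobp (0.94), Fcgr3 and Fyb, and Fcgr2b most like Ifi207, Ms4a6c and Nrros (all 0.83). Fcer1a was most like Meis2 (0.95), Slc45a3 and Atp8b5, Fcgrt most like Ehd4 (0.87), Pltp and Sdc3, and Fcrls most like C1qa (0.96), C1qb and C1qc. Fcgr3 and Fcer1g was the only pair of members in which each was among the 3 most like genes of the other.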

How the data were processed

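CD45+ cells of the brain or dura mater were profiled by droplet single-cell RNA-seq, and the submitters' processing notes name Cell Ranger 3.1.0, Seurat 3.1.0 and the mm10 genome. The deposited values are natural log values, ln(1 + UMIs per 10000 UMIs of the cell), computed by the authors. UMIs were recovered from them, taking a cell's smallest value as 1 UMI, and 100% of the values came out whole within 1e-06. A gene not listed in a library counted as 0. The cell filter asked for more than 1000 and fewer than 6000 detected genes, with no more than 7% of UMIs from mitochondrial genes. A doublet caller marked under 0.5% of cells, so the highest-scoring 0.8% per 1000 barcodes were removed instead. Cells were clustered with Seurat 5.3.0 in R 4.3.3 (2500 variable genes without members and pathway genes, 30 components, 20 neighbours, resolution 0.6), and clusters were named by fixed marker lists. Class names were rebuilt here and may differ from the study's. Classes with at least 20 cells in a library were used.

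Groups came from the labels, with 1 library each, so there was no test. Intervals are exact Poisson or binomial 95% intervals and cover counting error only. Where a group held no UMI of a gene, 3 UMIs were used in its place. The count step was tested on simulated data. Python 3.11.15 with scanpy 1.11.5, scipy 1.17.1, numpy 2.4.6, pandas 2.3.3 and matplotlib 3.10.9 was used. The members, the lists and the marker genes were chosen with earlier results of these data known. The genes named are the 8 members, the called genes of the pathway list in microglia-like and infiltrating-like cells (at most 5 per direction) and the 3 genes most like each member, of which 1 is not reported here. Alternatives were a per-cell marker gate, thinning to 2000 UMIs, doublets kept, resolution 1.2, no filter on cells, the mean of per-cell shares, T-like levels subtracted and 2500 cells drawn per library. The mean of per-cell shares and the T-like subtraction gave no interval, so a call there rested on the 2-fold difference alone. Leaving out cells with UMIs of other classes' genes was added after seeing the data.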

Additional observations from a re-analysis of the deposited data

Results flagged for a closer look

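Fcgrt in cDC1-like cells had opposite directions in the 2 tissues by pooled CPM. In the brain the log2 ratio of D3 over S3 was -0.65 (-1.001 to -0.297), from 219 to 139 CPM in 23 and 50 cells. In the dura mater it was 0.43 (0.15 to 0.71), from 174 to 235 CPM in 39 and 45 cells. By pooled CPM it was the only such case among 46 pairs of class and member with a ratio in both tissues. Neither ratio reached 2-fold, and the difference between the tissues was not tested.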

How the results depend on the processing

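The results rest on 1 library per group, and neither the animals nor the preparation can be told apart from the condition. Of 126 alternative values of the called members, 125 kept their direction and 112 were still called. The exception in direction was Fcgr1 in Ly6C low monocyte-like cells of the brain, at -0.14 with doublets kept. Over all members, called or not, 539 of 824 alternative values lay within the main interval and 284 outside it. The cDC1-like, NK/ILC1-like and B-like comparisons were not recomputed. The count of called members in monocyte-like and granulocyte-like cells of the brain was 4, and 2 with the per-cell gate, with the mean of per-cell shares and with 2500 cells drawn. In the dura mater it was 1, and 2 with the gate, 3 with T-like levels subtracted and 2 with 2500 cells drawn. Ly6C low monocyte-like cells could not be compared in that draw. For macrophages of the brain the count was 0, and 1 with the gate. For infiltrating-like macrophages against the other 2 classes of brain D3 it was 3, and 5 after thinning, 5 with the mean of shares, 6 with T-like levels subtracted and 5 with 2500 cells drawn. After thinning the added members were Fcgr4 (1.74) and Fcgrt (-1.37), both against microglia-like cells. The number of members with the same leading class as in the report was 8, and 5 without a filter on cells and 5 with 2500 cells drawn. Without a filter, cDC2-like and mast cell-like comparisons could not be made. The cause of these changes was not tested. Fcer1a in mast cell-like cells ranged from 1.13 to 1.30 and Fcgr4 in microglia-like cells from 1.41 to 2.20. No paired analysis was possible because each group had 1 library.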
